A study of Mus musculus with 9 samples.

Results

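Msx1, Msx2, Dlx1, Dlx2, Dlx3, Dlx5 and Dlx6 are homeobox genes of limb and bone whose transcription responds to BMP signals. These 7 genes were taken by name from the deposited expression table, where each had 1 of the 24102 rows. The table holds RNA sequencing values from GFP-positive cells sorted from mouse limbs at E12.5. Mutant embryos were of the genotype Shox2(Cre/-);Rosa(mTmG) and control embryos Shox2(Cre/+);Rosa(mTmG). Both groups therefore carried Cre at 1 Shox2 allele and the mTmG reporter, in which Cre turns on a green membrane protein, and they differed in the second Shox2 allele. The controls had only 1 allele without Cre and were not wild type. Cre is made where Shox2 is active, so the sorted cells are those with present or past Shox2 activity. There were 3 mutant and 3 control columns, 1 of each from litters 1, 2 and 3, and all errors are over n = 3 columns per group. The labels list 4 mutant samples, 2 of them from litter 1, and no source used here says whether that column holds 1 or both. The 2 WT whole limb samples were not analysed here.

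Msx proteins bind AT-rich DNA and mostly repress transcription, and in the limb they are made in distal mesenchyme and in the ectodermal ridge at the limb tip. Dlx proteins mostly activate transcription. Dlx5 and Dlx6 are active in the ridge and in developing skeleton, where they promote the maturation of cartilage and bone, and Msx2 can oppose Dlx5 on the same sites in bone cells. Shox2 is a homeodomain factor needed for the proximal limb bones. The comparison asks how this family is expressed in Shox2-lineage cells that have lost the second allele.

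Shox2 itself, the check of the genotypes, was at 16.7, 18.3 and 96.9 FPKM in the mutants of litters 1, 2 and 3, against 217, 222 and 210 FPKM in the controls. FPKM values are scaled for transcript length and library size, so levels can be set side by side between genes. The litter 3 mutant kept 46.2% of the Shox2 level of its control, so its contrast with the control was the smallest of the 3. The log2 difference of Shox2 was -2.75 (SE 0.64, limma adjusted p = 0.803), lower in 3 of 3 mutants, and -3.56 (adjusted p = 0.012) without the litter 3 mutant. All limb mesenchyme markers measured were present: of the 7 found in the table, Prrx1, a mesenchymal homeobox factor, was at 121, 201 and 246 FPKM in the mutants and at 106, 176 and 184 FPKM in the controls. Prrx1 did not pass the test (log2 difference 0.27, limma adjusted p = 1.00).

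The family was expressed at low to moderate levels, and Dlx5 and Msx1 led it. In the mutants the mean levels ran from Dlx5 at 7.12 ± 4.07 FPKM (SD, n = 3) and Msx1 at 6.08 ± 1.09 FPKM through Msx2 at 2.34 ± 0.640, Dlx6 at 1.79 ± 0.614 and Dlx3 at 0.878 ± 0.531 FPKM to Dlx2 at 0.445 ± 0.243 and Dlx1 at 0.305 ± 0.210 FPKM. In the controls Dlx5 was at 18.0 ± 15.8 FPKM, Msx1 at 4.60 ± 2.69, Msx2 at 3.11 ± 2.35, Dlx6 at 2.95 ± 1.42, Dlx3 at 1.32 ± 0.573, Dlx1 at 0.207 ± 0.270 and Dlx2 at 0.0615 ± 0.0658 FPKM. The order was the same in both groups except for the last 2 places. Among neighbours in this order, every column of Msx1 lay above every column of Msx2 in the mutants, and every column of Dlx3 above every column of Dlx1 in the controls. All other neighbours overlapped. Dlx5 exceeded Msx1 in 2 of 3 mutant columns and in 3 of 3 control columns.

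Mutants and controls were compared by limma on log2(FPKM + 1) across 12314 rows, those that reached 1 FPKM in 3 or more of 6 columns. Msx1, Msx2, Dlx5 and Dlx6 entered this test. Dlx1, Dlx2 and Dlx3 lay below the filter and are described without it. Of the 4 tested members 0 passed the adjusted threshold of 0.05 in either direction, beside 0.00% of all rows on each side. Before adjustment, 0 of the 4 had a p under 0.05, beside 3.57% of all rows (2.21% higher and 1.36% lower). The groups overlapped for 4 of the 4, beside 4.22% of rows separate and higher and 5.03% separate and lower. Weighting the columns by their scatter also called 0 of the 4, beside 0.0975% of rows higher and 0.0244% lower. With litter as a block, Dlx5 and Dlx6 had unadjusted p under 0.05, both lower in the mutants, beside 6.29% of all rows in that direction, and 0 passed after adjustment. The median log2 difference of the 4 was -0.31, against -0.04 over all rows tested. The smallest p that an exact two-sided permutation test can reach here, with 3 columns a group, is 0.1.

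**Figure D1:**
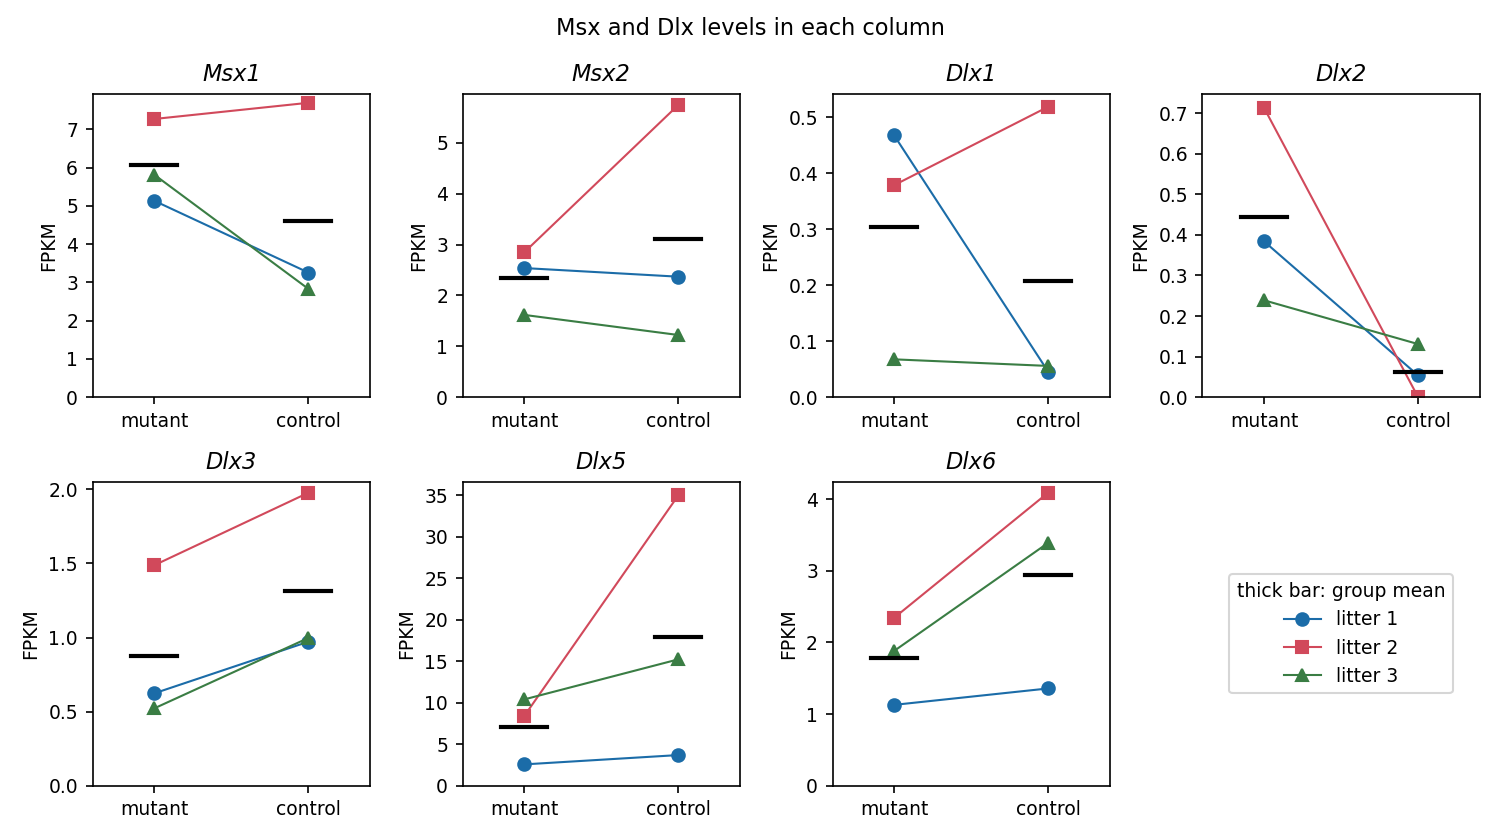
Level in FPKM (vertical axes, linear, from 0) of each of the 7 genes in the mutant and control columns, with 1 symbol per litter, lines joining the columns of a litter and thick bars at the group means. The litter 2 control holds the highest value of 6 of the 7 genes, and Dlx2 is higher in every mutant column than in any control column.

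Msx1, which keeps limb mesenchyme undifferentiated in mouse, was at 5.13, 7.27 and 5.82 FPKM in the mutants of litters 1, 2 and 3, against 3.26, 7.70 and 2.83 FPKM in the controls. The mutants of litters 1 and 3 were above their controls, the litter 2 pair was nearly level, and the groups overlapped through the litter 2 control. The log2 difference was 0.43 (SE 0.33, limma adjusted p = 1.00, exact permutation p = 0.4), with 0.53, -0.07 and 0.83 in litters 1, 2 and 3. The mutant columns were the closer together: the highest was 1.42 times the lowest, against 2.72 times in the controls. Msx1 is the 1 member among the 1352 symbols of the authors' deposited table of direct repression targets of Shox2. The making of that table is not described in the labels and may have drawn on these libraries, so it is no independent evidence of a direction. Of its 949 tested rows, 36.9% were higher in the mutants of 3 of 3 litters, and Msx1, with 2 of 3, was not among them. Without the litter 2 pair and with litter as a block, Msx1 was higher by 0.68 on the log2 scale (limma adjusted p = 0.000637), beside 2.56% of all rows called higher and 1.78% lower in that fit. That fit rests on 2 litters and leaves out the only pair in which Msx1 was not higher, so it is no separate evidence of a difference.

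Msx2, the paralogue with roles in ridge, skull and bone, was at 2.54, 2.85 and 1.62 FPKM in the mutants, against 2.37, 5.75 and 1.22 FPKM in the controls. The litter 2 control stood above all other columns, and the other 5 columns of both groups were interleaved. The log2 difference was -0.17 (SE 0.41, limma adjusted p = 1.00, exact permutation p = 0.9). By litter it was 0.07, -0.81 and 0.24, so its sign came from litter 2. Without the litter 2 pair it was 0.15.

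The promoters of these paralogues, and of Dlx2 described below, are shown because Msx1 alone is in the table of repression targets. Each window runs from 250 bases before the start site to 50 after it, from RefSeq on GRCm38.p6, 5′ to 3′ on the gene's strand, which is minus for all 3. They lie at chr5:37824536-37824835 for Msx1, chr13:53472731-53473030 for Msx2 and chr2:71546705-71547004 for Dlx2. The promoter table holds such a window for 4 of the 7 members, and the expression values were made on mm9. Capitals mark matches to 4 motifs searched on both strands, none of which overlap one another in these windows. The homeodomain motif was TAATTA and the motif known for NF-Y binding was CCAAT. The Smad motif, rich in G and C, was GGCGCC and the motif of the TATA box was TATAAA.
Msx1: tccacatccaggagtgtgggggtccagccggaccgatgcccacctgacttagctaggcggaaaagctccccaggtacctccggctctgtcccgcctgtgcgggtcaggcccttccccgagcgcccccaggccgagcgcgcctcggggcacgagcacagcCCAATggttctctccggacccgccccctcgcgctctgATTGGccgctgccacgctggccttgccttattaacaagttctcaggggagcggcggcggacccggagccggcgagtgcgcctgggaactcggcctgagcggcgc
Msx2: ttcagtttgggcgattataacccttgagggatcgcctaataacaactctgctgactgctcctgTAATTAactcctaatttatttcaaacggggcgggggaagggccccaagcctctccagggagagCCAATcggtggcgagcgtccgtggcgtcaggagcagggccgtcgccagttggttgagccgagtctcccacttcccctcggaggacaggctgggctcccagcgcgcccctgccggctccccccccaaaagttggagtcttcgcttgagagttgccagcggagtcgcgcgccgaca
Dlx2: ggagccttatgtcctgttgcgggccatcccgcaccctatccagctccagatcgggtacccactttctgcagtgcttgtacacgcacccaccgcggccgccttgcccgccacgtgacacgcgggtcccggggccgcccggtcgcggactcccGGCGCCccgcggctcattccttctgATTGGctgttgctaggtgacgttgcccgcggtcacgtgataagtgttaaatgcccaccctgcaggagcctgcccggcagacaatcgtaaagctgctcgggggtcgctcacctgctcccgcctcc
TAATTA was found once, in Msx2, from base 64 of the window, and is held by 5.29% of 32851 promoters of this length. CCAAT or its reverse was found at bases 160 and 197 in Msx1, at 127 in Msx2 and at 177 in Dlx2, and is held by 37.4% of promoters. GGCGCC was found in Dlx2 from base 152, and is held by 11.9%. TATAAA, held by 13.6%, was found in none of these windows, nor were any of the 4 motifs in the Dlx1 window. All 4 windows were GC-rich, with 70.0% G and C in Msx1, 61.0% in Msx2, 66.3% in Dlx2 and 69.3% in Dlx1, against a median of 52.7% over all promoters. A match in these letters is a description of the sequence and not a bound site.

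The balance of the 2 Msx genes differed in the same direction in every litter. The ratio of Msx1 to Msx2 within a column, which no scaling of the columns can change, was 2.02, 2.55 and 3.59 in the mutants, against 1.37, 1.34 and 2.32 in the controls. Each mutant was above its own control, while the groups overlapped between the litter 1 mutant and the litter 3 control. The log2 ratio was higher in the mutant by 0.56, 0.93 and 0.63 in litters 1, 2 and 3 (exact permutation p = 0.2 over 3 columns against 3, with litters not paired). The ratio of Dlx5 to Dlx6, examined alongside, was 2.27, 3.58 and 5.53 in the mutants and 2.72, 8.55 and 4.49 in the controls, higher in 1 of 3 litters (exact permutation p = 0.6). Both ratios were chosen after the values were seen, and the p-values were not adjusted for these 2 comparisons.

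**Figure D2:**
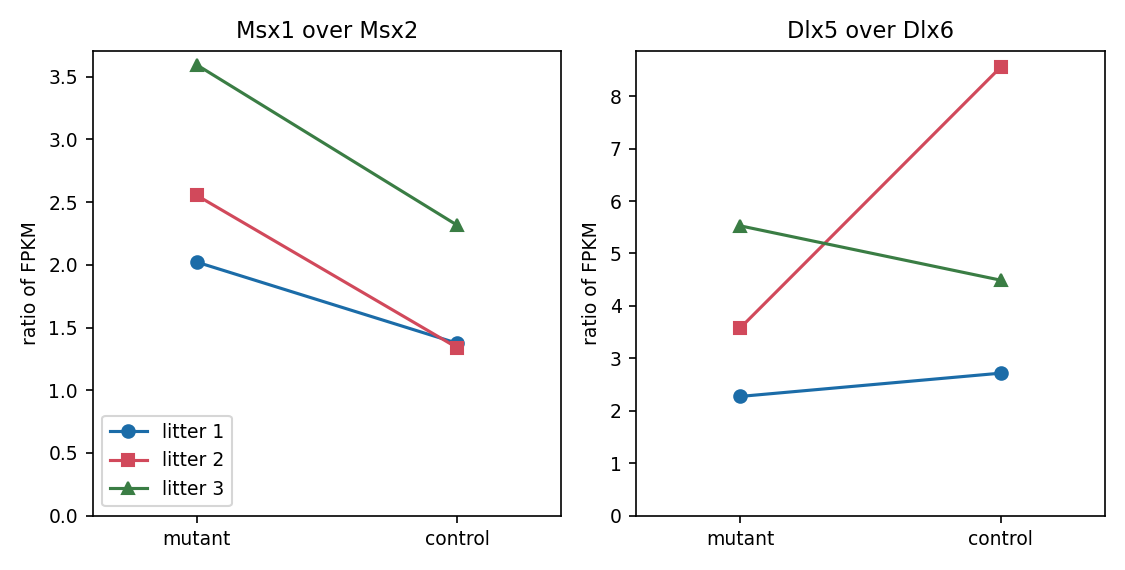
Ratio of FPKM of Msx1 to Msx2 (left) and of Dlx5 to Dlx6 (right) in the mutant and control column of each litter, with 1 symbol per litter and linear axes from 0. The 3 lines on the left run down from mutant to control, while on the right 1 does and 2 run up.

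Dlx5, an activator of osteoblast and hypertrophic cartilage genes, was at 2.57, 8.39 and 10.4 FPKM in the mutants of litters 1, 2 and 3, against 3.69, 35.0 and 15.2 FPKM in the controls. Every mutant was below the control of its own litter, but the groups overlapped because both litter 1 columns were low. The log2 difference was -0.95 (SE 0.79, limma adjusted p = 1.00, exact permutation p = 0.4), with -0.40, -1.94 and -0.51 in litters 1, 2 and 3. The mutants held 69.5%, 24.0% and 68.3% of the level of their controls. The difference rested on litter 2 for its size: without the litter 2 control it was -0.27, and without the litter 2 pair -0.45 (limma adjusted p = 0.0332 with litter as a block, on 2 litters).

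Dlx5 varied more between litters than almost any other gene. Its highest control column was 9.49 times its lowest, a spread exceeded by 1.25% of the rows tested, where the median row had 1.45. In the mutants the spread was 4.05 times, exceeded by 2.80% of rows. Msx2 had a spread of 4.70 times in the controls, exceeded by 3.29% of rows, and of 1.76 times in the mutants.

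Dlx6, which lies next to Dlx5 in a tail-to-tail pair and shares enhancers with it, was at 1.13, 2.34 and 1.88 FPKM in the mutants, against 1.36, 4.09 and 3.39 FPKM in the controls. It too was lower in the mutant of every litter, and the litter 2 and 3 controls stood above all mutant columns while the litter 1 control did not. The log2 difference was -0.45 (SE 0.33, limma adjusted p = 1.00, exact permutation p = 0.3), with -0.15, -0.61 and -0.61 in litters 1, 2 and 3. With litter as a block the SE was 0.29 for Dlx5 and 0.16 for Dlx6, the unadjusted p 0.0140 and 0.0257, and the limma adjusted p 0.328 and 0.384.

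Dlx3, a regulator of surface ectoderm and its appendages and also of bone, was at 0.623, 1.49 and 0.522 FPKM in the mutants, against 0.972, 1.98 and 0.997 FPKM in the controls. Each mutant was below its control, and the groups overlapped through litter 2, which was high in both. The log2 differences were the most even of the family, at -0.28, -0.26 and -0.39 in litters 1, 2 and 3 (exact permutation p = 0.4). The mutants held 64.1%, 75.3% and 52.4% of the control level. Together 3 of the 7 members, Dlx3, Dlx5 and Dlx6, were lower in 3 of 3 litters, beside 17.0% of all rows above 0, and 1, Dlx2, was higher in 3 of 3, beside 14.6%. This count has no test of its own, since the litter 2 columns and the neighbours Dlx5 and Dlx6 share their source.

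Dlx2 and Dlx1, an adjacent pair best known from forebrain interneurons and jaw, were near the floor of the table. Dlx2 was at 0.384, 0.713 and 0.239 FPKM in the mutants, against 0.0536, 0 and 0.131 FPKM in the controls. All mutant columns lay above all control columns, so it was the 1 member whose groups did not overlap, beside 4.67% of all rows above 0 in this direction and 4.29% in the other. The exact permutation p was 0.1, the lowest possible. With no filter on low values limma gave an unadjusted p of 0.0147, where 2.50% of rows were under 0.05 and higher and 1.49% lower, and an adjusted p of 1.00. The log2 differences on the FPKM + 1 scale, which understates the change of low genes, were 0.39, 0.78 and 0.13. Dlx1 was at 0.468, 0.379 and 0.0676 FPKM in the mutants, against 0.0455, 0.519 and 0.0558 FPKM in the controls. The litter 1 mutant stood 10.3 times above its control, while litter 2 went the other way and litter 3 was nearly level (exact permutation p = 0.8). Depth could not be derived from these values, so how many reads such levels rest on is unknown.

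**Figure D3:**
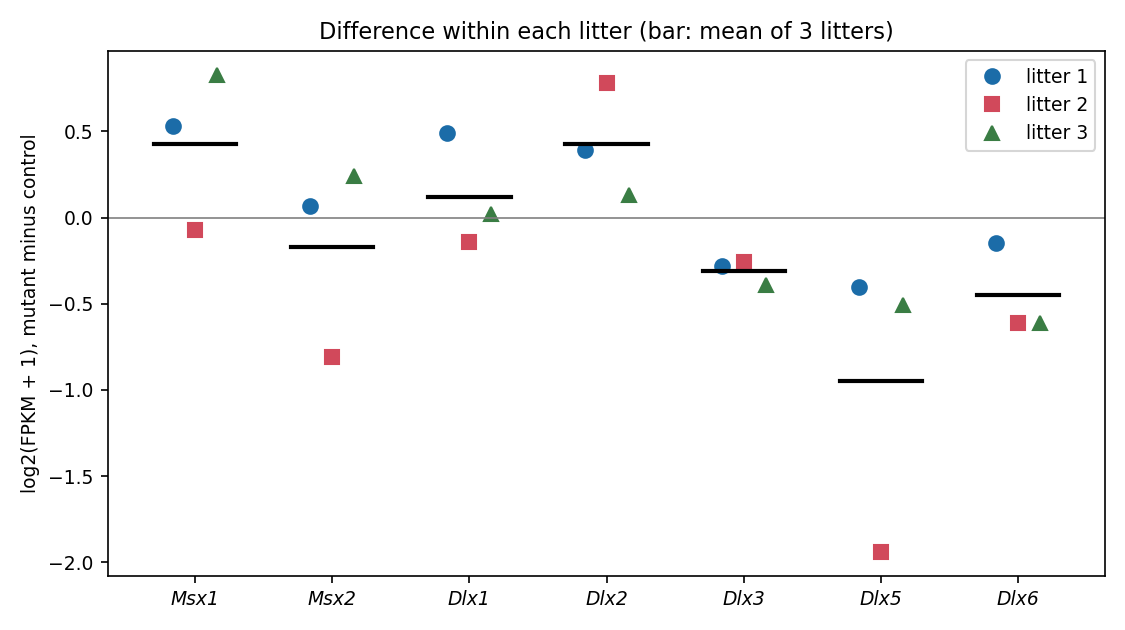
Mutant minus control difference in log2(FPKM + 1) within each litter for the 7 genes, with 1 symbol per litter and a black bar at the mean of the 3. Dlx3, Dlx5 and Dlx6 are below 0 in each litter, Dlx2 is above 0 in each litter, and the litter 2 point of Dlx5 lies lowest at -1.94.

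Other transcripts of these loci were all under 1 FPKM. Msx1os, an antisense RNA of Msx1, was at 0.773, 0.4998 and 0.339 FPKM in the mutants, against 0.445, 0.388 and 0.173 FPKM in the controls. It was higher in each litter, beside 14.6% of all rows above 0, and its groups overlapped. Dlx6os1, the noncoding Evf2 RNA that overlaps Dlx6, was at 0.573, 0.344 and 0.183 FPKM in the mutants and at 0.228, 0.170 and 0.386 FPKM in the controls. Dlx1as, an antisense RNA of Dlx1, was at 0.310, 0.0727 and 0.0586 FPKM in the mutants, against 0.135 FPKM in the litter 1 control and 0 in the others. Dlx1as too was higher in each litter, with groups that overlapped. Dlx4 and Msx3 did not exceed 0.0383 and 0.196 FPKM. The labels do not say whether the libraries kept strand, so reads of Msx1, Dlx1 and Dlx6 cannot be told apart from those of their antisense partners. Identical sequence between members was short: over the 21 pairs of longest coding transcripts in GENCODE M21, the longest identical run was 44 bases, between Msx2 and Dlx6, and 22 bases between Msx1 and Msx2.

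**Figure D4:**
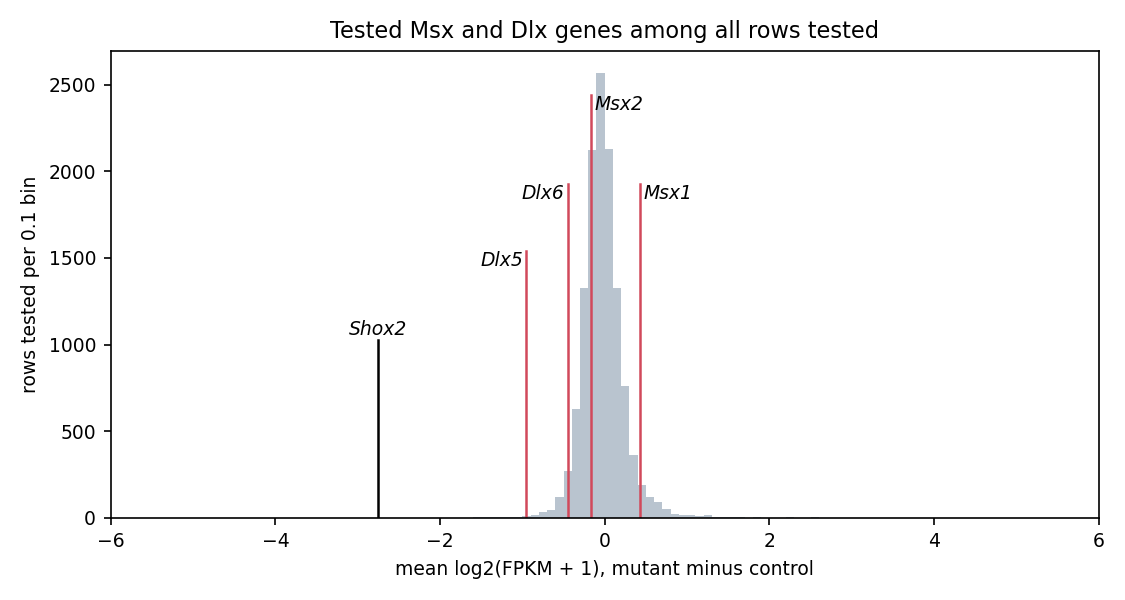
Distribution of the mean mutant minus control difference in log2(FPKM + 1) over the 12314 rows tested (bars, rows per bin of 0.1), with lines at Msx1 (0.43), Msx2 (-0.17), Dlx5 (-0.95) and Dlx6 (-0.45), and at Shox2 (-2.75) in black. Line heights carry no value.

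The litter 2 control stood apart in its levels of several marker lists of other cell types, although all 6 columns came from cells sorted for GFP. It had the highest value of 6 of the 7 members, all except Dlx2, beside 27.4% of all rows above 0. Markers of surface ectoderm, a tissue that also makes Dlx3, Dlx5, Msx1 and Msx2, summed to 17.4, 21.6 and 15.9 FPKM in the mutants, against 19.3, 41.2 and 18.3 FPKM in the controls, over 11 of 11 markers. The median log2 difference of the 6 tested was -0.18, and 0.22 without the litter 2 control. The keratin gene Krt14 was at 5.08 FPKM in the litter 2 control and between 1.06 and 1.92 FPKM in the other 5 columns. The epithelial cadherin gene Cdh1, chosen after its values were seen, was at 2.15 FPKM there and between 0.162 and 0.406 FPKM elsewhere. Endothelial markers, 7 of 7, summed to 16.6 FPKM in that column and to between 5.54 and 7.94 FPKM in the others, and muscle markers, 7 of 7, to 57.8 FPKM against 17.4 to 35.6 FPKM. Nerve and glia markers summed to 67.1, 38.8 and 25.7 FPKM in the mutants and to 30.5, 67.0 and 18.5 FPKM in the controls, and the median log2 difference was 0.12 for these genes, -0.28 for red cell genes, -0.06 for leukocyte genes and -0.17 for genes of the dissociation response. The part of these marker levels in the litter 2 values of Msx2, Dlx3 and Dlx5 was not tested. In bulk RNA, fewer cells of a type and less RNA per cell cannot be told apart.

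Of the 7 ridge markers, Fgf8, the growth factor of the apical ridge, was at 2.52, 6.11 and 5.95 FPKM in the mutants, against 6.12, 9.92 and 10.2 FPKM in the controls. It was lower in every mutant than in any control, although the litter 2 mutant and the litter 1 control were nearly level (log2 difference -0.77, SE 0.33, limma adjusted p = 1.00, and 0.0998 when blocked by litter). En1 had a log2 difference of 0.13, and the other 5 ridge markers were below the filter. Of these, 3 were highest in the litter 2 control: Sp6 was at 1.15 FPKM there and between 0.126 and 0.240 FPKM in the other 5 columns. Sp8 was at 1.05 FPKM there, against 0.0415 to 0.646 FPKM elsewhere, and Fgf9 at 1.14 FPKM, against 0.538 to 0.898 FPKM. Fgf17 and Fgf4 did not exceed 0.296 and 0.0150 FPKM. The keratin gene Krt18, a surface ectoderm marker named for a small p, was at 5.41, 6.07 and 5.42 FPKM in the mutants. In the controls it was at 8.88, 9.69 and 8.10 FPKM, again without overlap (log2 difference -0.58, limma adjusted p = 0.816). Of all rows tested, 5.03% were separate and lower, and for Krt18 the separation adds nothing to its small p. Of the 11 surface ectoderm markers, 2, Krt18 and Epcam, were lower in 3 of 3 litters and 0 higher. This stands beside 17.0% of all rows above 0 lower and 14.6% higher. The 6 tested markers had median log2 differences of 0.32, -0.8 and -0.04 in litters 1, 2 and 3. The list as a whole therefore did not share the direction of Krt18. Fgf8 and Krt18 were lower in the mutant of each litter, as were Dlx3, Dlx5 and Dlx6. Fgf8 differed by -1.01, -0.62 and -0.68 in litters 1, 2 and 3, and Krt18 by -0.62, -0.60 and -0.50. Dlx3 differed by -0.28, -0.26 and -0.39, Dlx5 by -0.40, -1.94 and -0.51, and Dlx6 by -0.15, -0.61 and -0.61. The part of the Fgf8 and Krt18 levels in the lower Dlx3, Dlx5 and Dlx6 values was not tested.

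Sex-linked expression also differed in litter 2, where the Y-linked gene Eif2s3y was listed at 0 FPKM in the mutant and at 23.9 FPKM in the control, so genotype and sex cannot be told apart there.

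Genes of bone cell maturation, the setting in which Dlx5 and Dlx6 are known to act, were lower in the mutants of every litter for 8 of the 11 listed, beside 17.0% of all rows above 0. The median log2 difference of the 11 was -0.58, against -0.01 over all rows above 0. Of these, 8 entered the test, but Panx3 did so through the controls alone, so that a lower value in the mutants was partly fixed by the filter. Of the other 7, 6 were lower in 3 of 3 litters, beside 22.3% of all rows tested, 0 passed over all rows, and 3, Sp7, Alpl and Spp1, had an unadjusted p under 0.05, beside 1.36% of all rows lower at that p. The median of the 8 tested was -0.87, and -0.54 without the litter 1 mutant. Sp7, which encodes osterix and acts downstream of Dlx5 in mouse bone, was at 0.921, 1.54 and 2.15 FPKM in the mutants, against 3.22, 5.78 and 5.34 FPKM in the controls. Alpl, which encodes alkaline phosphatase, was at 1.04, 1.22 and 1.17 FPKM in the mutants, against 2.74, 7.91 and 3.76 FPKM in the controls. Panx3, a channel of bone-forming cells, was at 0.105, 0.147 and 0.333 FPKM in the mutants, against 1.37, 2.71 and 2.75 FPKM in the controls. With litter as a block the limma adjusted p was 0.0643 for Sp7 and 0.101 for Alpl. The groups did not overlap for Sp7 and Alpl, beside 5.03% of all rows tested, but both were named for a small p, so this adds nothing to it.

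**Figure D5:**
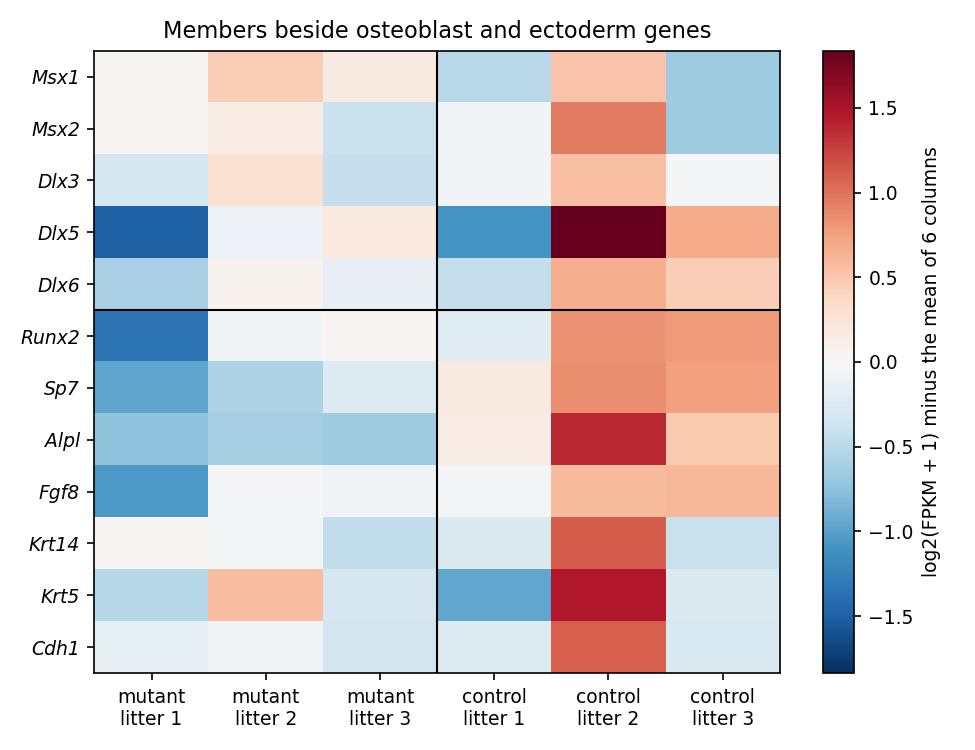
log2(FPKM + 1) of each gene in the 6 columns, centred on its own mean (red above, blue below), for 5 Msx and Dlx genes, 3 bone genes (Runx2, Sp7, Alpl) and 4 ectoderm genes (Fgf8, Krt14, Krt5, Cdh1). The litter 2 control is the reddest column for all 5 Msx and Dlx genes, the 3 bone genes and Krt14, Krt5 and Cdh1. Runx2, Sp7 and Fgf8 are red in both the litter 2 and litter 3 controls. Runx2, Krt5 and Cdh1 were chosen after their values were seen. Krt18 and Epcam, not drawn, were at 9.69 and 5.41 FPKM in the litter 2 control. In the other columns they reached at most 8.88 and 5.15 FPKM.

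The BMP pathway, which drives Msx and Dlx transcription, was followed through a list of its other genes. Of 9 tested ligand genes 4 were higher and 2 lower in 3 of 3 litters, of 6 receptor genes 5 and 0, of 13 antagonist genes 5 and 2, and of 11 transducer and target genes 6 and 2, beside 15.7% of all rows higher and 22.3% lower. The median log2 differences were 0.15, 0.26, 0.10 and 0.16 for these 4 groups, and 0 genes of them passed over all rows in either direction. Without the litter 2 pair the ligand median was -0.09. Among ligands Gdf5, of forming joints, had a log2 difference of 1.10 (SE 0.14, limma adjusted p = 0.467), Bmp3, which opposes BMP signalling, 0.61 and Bmp5 0.40. Among antagonists Chrdl1, which encodes a chordin-like protein that binds BMPs, was at 27.6, 28.8 and 28.1 FPKM in the mutants, against 14.2, 9.40 and 13.2 FPKM in the controls (log2 difference 1.15, SE 0.18, limma adjusted p = 0.471, and 0.0643 when blocked by litter). Grem1, a secreted BMP antagonist of limb mesenchyme, was at 12.8, 15.6 and 19.2 FPKM in the mutants and at 9.997, 8.49 and 12.7 FPKM in the controls. Nog, which encodes noggin, had a log2 difference of 0.61 (SE 0.25). Chrdl1, Grem1 and Bmp5 are also in the authors' deposited table of repression targets, with the same reservation.

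Direct BMP readouts other than Msx and Dlx did not share one direction. Id2, whose protein blocks helix-loop-helix factors, had a log2 difference of 0.52 (SE 0.18), while Id4, of the same family, was at 10.1, 10.7 and 11.6 FPKM in the mutants, against 12.4, 21.4 and 13.7 FPKM in the controls, a log2 difference of -0.48 (SE 0.22). Smad9, a BMP transducer, had a log2 difference of 0.42 (SE 0.19). These 3 genes, named for the smallest p of the 11, did not pass over all rows (limma adjusted p = 1.00 each). Among receptors, Bmpr1b, Bmpr2 and Bmpr1a had log2 differences of 0.32, 0.29 and 0.30, each with a limma adjusted p of 1.00.

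Position in the limb was followed through markers of its distal part, where Msx1 and Msx2 are made, and of its proximal part. Of 11 tested distal genes 7 were higher and 1 lower in 3 of 3 litters, beside 15.7% of all rows higher and 22.3% lower, with a median log2 difference of 0.30 against -0.04 over all rows. Of 6 proximal genes 4 were higher and 0 lower, with a median of 0.21. In the distal list Lhx9, a LIM homeobox factor, had a log2 difference of 0.65 (SE 0.14, limma adjusted p = 0.732), and Hoxd11 and Hoxa11, of the forearm segment, 0.44 and 0.42. In the proximal list Irx3 and Irx5, Iroquois homeobox factors, had 0.47 and 0.33, and Zbtb16, a zinc-finger factor of the proximal hindlimb, 0.26. Both medians lay on the same side of 0 as Msx1 and on the other side from Msx2, Dlx5 and Dlx6, and 0 of either list passed over all rows.

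For the tested members whose litters shared a direction, Dlx5 and Dlx6, the rows of most similar pattern were sought among 9429 rows averaging at least 5 FPKM, by the root mean square difference of centred log2(FPKM + 1) over the 6 columns. Nearest to Dlx6 were Acot7, at 0.04, Aqp1 and Htra2, each at 0.10. This distance grows with a gene's own spread over the columns, which was wider for Dlx5, so the distances of Dlx5 and Dlx6 were not compared. Nearest to Dlx5 were Rnasek, at 0.30, Tgfbr3l, at 0.31, and Snrpf, at 0.33. The last 3 had a high litter 2 control like Dlx5, with 117 FPKM for Rnasek, 17.5 FPKM for Tgfbr3l and 152 FPKM for Snrpf. Each was the highest of its 6 columns. These rows were picked for likeness to Dlx5 over the same columns, so this feature was largely fixed by the choice.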

How the data were processed

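RNA of sorted limb cells was sequenced, and 1 table of 24102 rows and 6 value columns was used, 3 mutant and 3 control. Per the submitters' processing notes, the authors used TopHat and Cuffdiff on mm9. Per the file headers, Cuffdiff's geometric normalization was applied, named once per litter, so a level compared between litters can carry different scalings. The deposited values were taken as FPKM, a word the header does not hold. Strand, read length and tool versions: not given in the sources used. Column sums of FPKM ran from 347708 to 439109 and are no measure of depth. Low values shared whole-read steps within a litter for 8.13%, 6.12% and 44.5% of rows in litters 1, 2 and 3 (log2 ratio within 0.05 of -1, 0 or 1), so depth was not derived.

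An intensity trend and limma 3.58.1 (R 4.3.3) were used for the fit on log2(FPKM + 1) with Benjamini-Hochberg adjustment over all rows tested, and was tested on simulated data. The labels name each column's litter, which pairs the columns, and deviations from the group means correlated within litters at 0.87, 0.57 and 0.77. The fit without litter is the main one and litter as a block the second. In the main fit, p-values measure the spread between the columns of a group, each from another litter. With litter as a block, they measure how far the differences within litters vary from litter to litter. Of 146 list symbols, 142 matched distinct rows. Members and lists were chosen with earlier results of these data known. Named genes were the members, Shox2, other transcripts of the loci, up to 3 genes per list with the smallest p, and the 3 nearest patterns. Spp1, Cdh1, Krt5, Runx2, Eif2s3y and the untested ridge genes were named after their values were seen. Alternatives were the block, pseudocounts, filters, scalings, column weights and leaving out columns or litters.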

Additional observations from a re-analysis of the deposited data

How the results depend on the processing

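Over all alternatives run, Msx1 kept a positive and Dlx5 and Dlx6 a negative log2 difference. Leaving out 1 replicate each time gave 0.21 to 0.80 for Msx1, -1.74 to -0.27 for Dlx5, -0.79 to -0.23 for Dlx6 and -0.53 to 0.27 for Msx2, which was above 0 without control replicate 2 alone. Msx2 was also above 0 with column weights, at 0.35, and without the litter 2 pair, at 0.15 with and without the replicate block. Only without the litter 2 pair and with the replicate block did members pass: Msx1 at 0.68 (limma adjusted p = 0.000637) and Dlx5 at -0.45 (adjusted p = 0.0332), where 315 rows were called higher and 219 lower, or 2.56% and 1.78%. That fit leaves 2 litters, and the cause was not tested. Over all alternatives the adjusted p ran from 0.000637 to 1.00 for Msx1, from 0.650 for Msx2, from 0.0332 for Dlx5 and from 0.202 for Dlx6, each up to 1.00.

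Shox2 passed at -3.56 without mutant replicate 3, and with the replicate block at -2.37 without the litter 2 pair and at -3.58 without the litter 3 pair; leaving out 1 replicate gave -3.56 to -2.32. Column weights called 12 rows higher and 3 lower, and the block without the litter 3 pair 31 and 5. Leaving out 1 replicate called 0 to 1 in each direction. With the replicate block on all litters 0 rows were called, as in the fit without it, and at an unadjusted p under 0.05 there were 1433 rows, against 439. With a pseudocount of 0.1, Dlx1, Dlx2 and Dlx3 had mean differences of 0.57, 1.74 and -0.59, against 0.12, 0.43 and -0.31. A filter at a mean of 5 FPKM left Msx2 and Dlx6 without a value.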
